A study of Rattus norvegicus with 10 samples.

Results

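The transcripts of the mitochondrial genome were measured in kidney cortex from PCK rats of both sexes. The members are every row that the deposited gene table places on chromosome MT, which gave 37 of 32545 rows: 13 protein-coding genes, 2 ribosomal RNA (rRNA) genes and 22 transfer RNA (tRNA) genes. PCK rats carry a spontaneous mutation of Pkhd1 and are used as a model of autosomal recessive polycystic kidney disease, and all 10 rats were of this strain (PCK/CrljCrl-Pkhd1pck/Crl), so no library came from a kidney without the mutation. The groups are 5 males and 5 females, with no treatment named, of 12 to 14 weeks by the labels (the study's methods give a somewhat younger age), 1 library per rat. The rats were littermates from a pair of litters, and the litter of each rat was not given in the sources used here. The comparison asks whether mitochondrial transcripts differ between the sexes.

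The mitochondrial genome is a small circle present in many copies per cell. Its protein-coding genes encode core subunits of the respiratory chain and of ATP synthase, and its rRNAs and tRNAs serve the translation of those subunits inside the organelle. Both strands are transcribed as long precursors from which tRNAs are cut out, so that neighbouring mRNAs come from one precursor and their levels are set largely by processing, polyadenylation and decay. Most of the mRNAs gain a short poly(A) tail, and all proteins that transcribe, process and replicate this genome are encoded in the nucleus. The renal cortex is rich in mitochondria because the proximal tubule reabsorbs salt and nutrients by oxidative metabolism.

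Values are FPKM (fragments scaled to gene length and to a library size), which are levels per length. The reads behind each FPKM could be recovered, since every value was a whole number of reads within 0.01 of a read, and the libraries held 13912569 to 20285911 reads on genes. The library size implied by the FPKM was not this number. It was below the reads on genes in female 2 (14083202 against 14963924), female 4 (17691443 against 19556707) and male 2 (18578790 against 18885557). In the others it was above. The library female 2 stood apart: its summed proximal tubule markers (1296 FPKM) were the lowest of the 10, at 0.569 times the median of the others, and its urothelial markers summed to 9.41 FPKM against at most 0.763 in the others. Taken singly, only Aqp1 of the proximal tubule markers was lowest in female 2. Lrp2, Cubn, Slc34a1, Slc5a2 and Slc5a12 were lowest in male 5. Its endothelial markers (103 FPKM, against at most 75.5) and leukocyte markers (40.1 FPKM, against at most 37.5) also had the highest sums, at 1.51 and 1.61 times the median of the others. Proximal tubule markers such as Lrp2 and Slc34a1 were present in every library, with sums of 1296 to 2711 FPKM. Of the 6, 1 was called higher in females and 0 lower, where 1.26% and 1.14% of all genes were. The 1 called was Cubn (log2 difference 0.72, limma adjusted p 0.047). It was called in 2 of the 10 fits that left out 1 library, with limma adjusted p 0.022 to 0.122. Aqp1 had a log2 difference of -0.56 (limma adjusted p 0.233). The 4 fibroblast markers summed to 133 to 182.5 FPKM in the male libraries and 46.1 to 112 FPKM in the female ones. Of these 4, 1 was called lower in females, Col3a1 (limma adjusted p 0.048), where 1.14% of all genes were called lower. It was called in 3 of the 10 fits that left out 1 library, with limma adjusted p 0.025 to 0.118. Beside it, Col1a1 was called lower without female 2 (limma adjusted p 0.045) and Col1a2 without female 3 (0.026). The part of these markers in the sex comparison was not tested. In bulk tissue, fewer cells of a type and less RNA per cell cannot be told apart. Because the 10 libraries were enriched for polyadenylated RNA, the rRNA and tRNA rows count only molecules or precursors that passed this step. Whether the libraries or the counting kept strand was not given in the sources used here, so reads of overlapping and antisense genes cannot be separated.

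The 37 rows lie close together (coordinates are those of the table, Rnor_6.0). Of the 36 pairs of neighbours, 21 touch or overlap, 34 have a gap of at most 3 bases, and the largest gap is 32 bases, between AY172581.18 and AY172581.10. Overlap is longest between Mt-atp8 (MT:7758-7961) and Mt-atp6 (MT:7919-8599), which share 43 bases. Mt-nd5 (MT:11736-13565) and Mt-nd6 (MT:13543-14061) share 23 bases on opposite strands, and Mt-nd4l (MT:9870-10166) and Mt-nd4 (MT:10160-11537) share 7. Mt-nd6 is the only mRNA on the minus strand, and 8 of the 22 tRNA rows are on that strand. The table gives the rRNA and tRNA rows no gene symbol beyond a name of the form AY172581 with a number, so each is given here by that name and its place.

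Reads on mitochondrial rows made up 15.1, 17.0, 15.2, 15.4 and 16.4% of the reads on genes in males 1 to 5 and 15.6, 26.8, 17.1, 19.1 and 14.3% in females 1 to 5. The 95% Wilson intervals of these shares are at most 0.0449 points wide and cover counting error only. Females had a mean share of 18.6% ± 4.95 (SD, n = 5) and males 15.8% ± 0.837 (SD, n = 5). The ranges overlapped, with female 5 the lowest of all 10 libraries and female 2 far above the rest. Without female 2 the mean of the other 4 females was 16.5% ± 2.06. Protein-coding rows took 98.9% to 99.5% of mitochondrial reads, rRNA rows 0.438% to 0.968% and tRNA rows 0.0499% to 0.0900%.

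**Figure D1:**
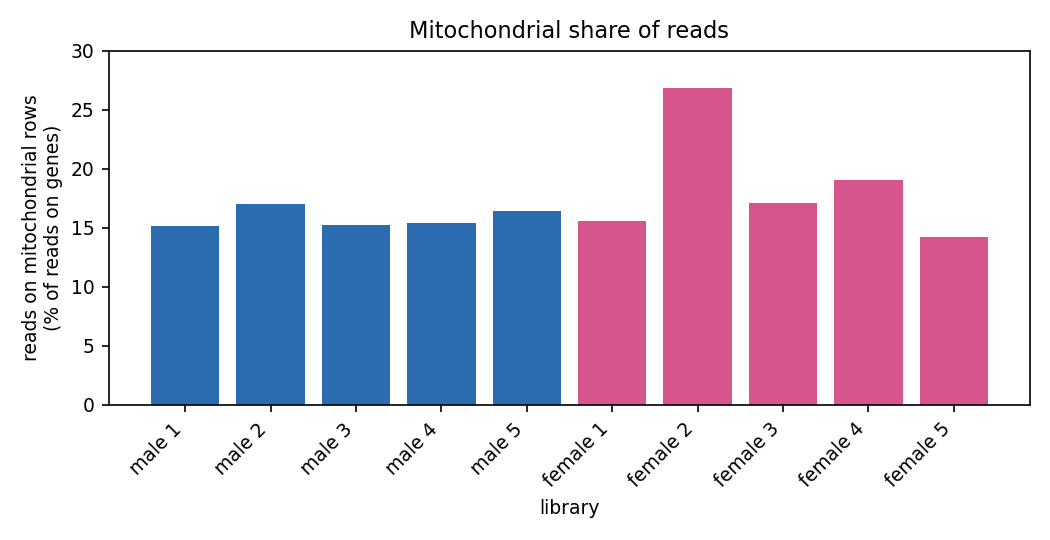
Bars give the reads on the 37 mitochondrial rows as a percent of all reads on genes in each library, males in blue and females in pink. Female 2, at 26.8%, stands above the other 9 libraries, which lie between 14.3% and 19.1%.

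Mitochondrial rows filled 7 to 9 of the 10 highest FPKM and 10 to 12 of the 20 highest in each library. The highest mean levels per length were those of the complex IV (cytochrome c oxidase) subunits and of Mt-atp6, the proton channel subunit of ATP synthase. Mt-co1 encodes the catalytic subunit of complex IV and Mt-co2 the subunit that receives electrons from cytochrome c. Mt-co1 (MT:5323-6867) reached 29271, 36994, 30104, 31421 and 29961 FPKM in males 1 to 5 and 30985, 59995, 35311, 40545 and 28209.6 FPKM in females 1 to 5. Female 2 was highest and female 5 lowest, so the male values lay inside the female range.

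Over the 10 libraries the mean level was 35279.6 FPKM for Mt-co1, 34811 for Mt-atp6, 31611 for Mt-cox3 (a structural subunit of complex IV) and 19733 for Mt-co2. Mt-cytb, the only mitochondrially encoded subunit of complex III, followed at 14894 FPKM. Mt-co1 exceeded Mt-atp6 in 7 of 10 libraries, so their order is not settled by these values, while Mt-atp6 exceeded Mt-cox3, Mt-cox3 exceeded Mt-co2 and Mt-co2 exceeded Mt-cytb in all 10.

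The 7 complex I (NADH dehydrogenase) mRNAs were lower and spread wider. Mt-nd2 and Mt-nd1, membrane subunits of complex I, had means of 12893 and 12369.8 FPKM and held that order in 5 of 10 libraries only. Mt-nd4l had a mean of 6456, Mt-nd3 of 3591, Mt-nd5 of 3183, Mt-nd6 of 2616 and Mt-nd4 of 1353 FPKM. The highest complex I mean was thus 9.53 times the lowest, against 1.79 times within complex IV. Mt-nd3 above Mt-nd5, and Mt-nd5 above Mt-nd6, each held in 7 of 10 libraries. Mt-nd6, the minus-strand mRNA, ran at 0.149 to 0.196 times the level per length of Mt-cytb, the next mRNA on the map, the most even of 9 ratios computed between members.

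Mt-atp8, a small membrane subunit of ATP synthase, had the lowest mean level of the mRNA rows, 540.2 FPKM, and the widest range between libraries, though in female 2 it exceeded Mt-nd3 and Mt-nd4. It measured 105, 132, 119, 741 and 338 FPKM in males 1 to 5 and 589, 2927, 151, 185 and 115 FPKM in females 1 to 5. Female 2, male 4, female 1 and male 5 were high and the other 6 libraries lay between 105 and 185 FPKM, so the spread crossed the sexes. The highest library stood at 27.8 times the lowest, on 332 to 8409 reads. Per length, Mt-atp8 was 0.00367 to 0.0526 times Mt-atp6, with which it shares 43 of its 204 bases. How reads in the shared stretch were counted was not given in the sources used here, so the FPKM of this row need not be the level of a separate Mt-atp8 transcript. The same 4 libraries had the highest sums of the tubule injury markers Havcr1, Lcn2 and Krt20 (107 to 189.5 FPKM against 9.39 to 87.3). Taken singly, Lcn2 was also highest in these 4 (58.5 to 93.3 FPKM against 5.85 to 52.1). Havcr1 was not: female 2, at 23.4 FPKM, lay below male 1, male 2, male 3 and female 3 (24.8 to 35.2). Krt20 was at most 0.215 FPKM in any library and 0 in female 1. The part of these markers in the Mt-atp8 values was not tested.

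**Figure D2:**
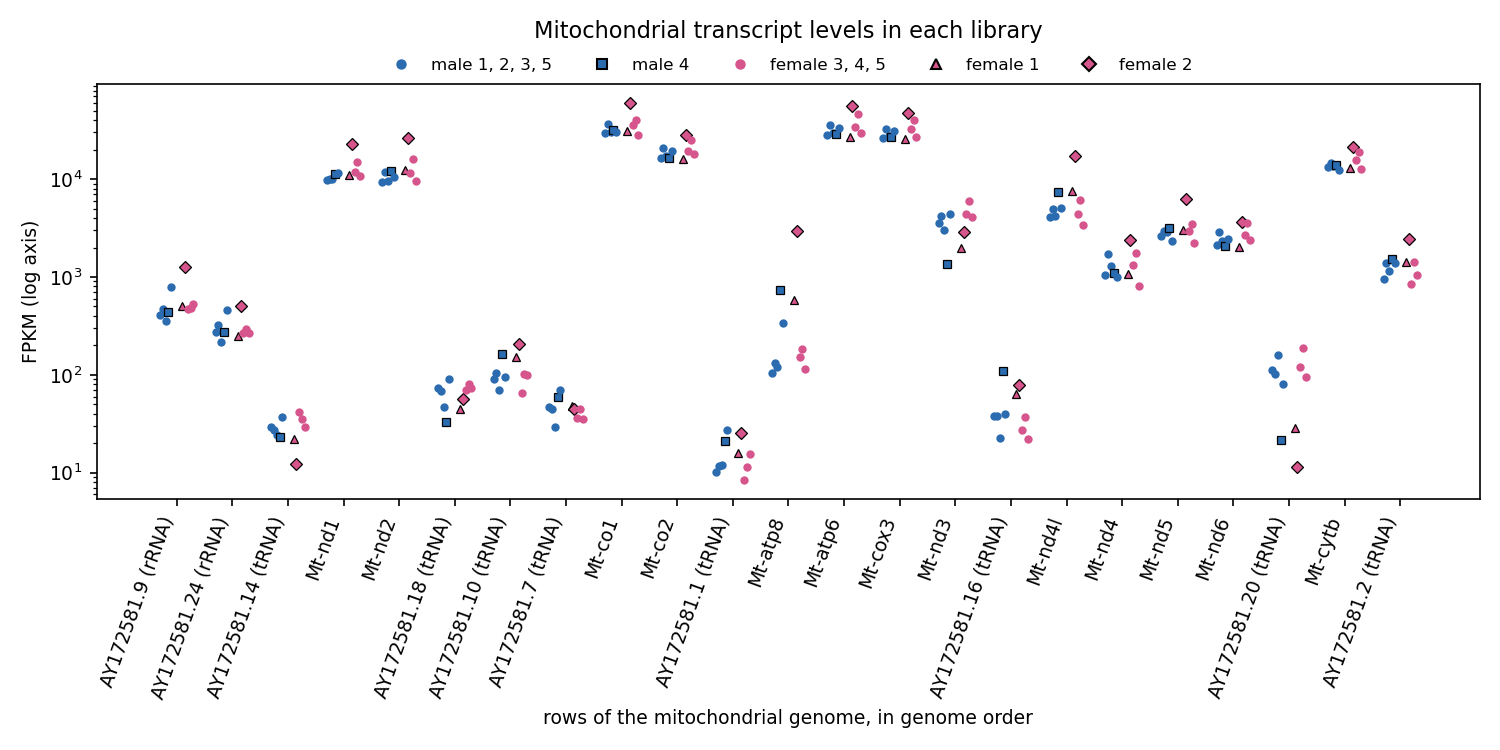
Each point is 1 library's FPKM (log axis) for the 13 mRNA rows, the 2 rRNA rows and the 8 tRNA rows with a mean of at least 10 reads, in genome order, males in blue and females in pink. Male 4, female 1 and female 2 have their own symbols, and they lie together at the top for Mt-atp8 and Mt-nd4l and, with 11.3 to 28.5 FPKM, at the bottom for AY172581.20.

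The rRNA rows encode the RNA of the small and large subunits of the mitochondrial ribosome. The shorter, AY172581.9 (MT:68-1025, 958 bases), had 409, 473, 355, 434 and 797 FPKM in males and 501, 1263, 475, 483 and 525 FPKM in females. Male 5 and female 2 were each the highest of their sex. The longer, AY172581.24 (MT:1094-2664, 1571 bases), had 274, 322, 215, 271 and 463 FPKM in males and 247, 507, 267, 293 and 265 in females, with the same highest libraries. The rRNA share of mitochondrial reads was highest, at 0.968%, in male 5, a library that also had the most reads on nuclear small RNA rows (0.0172% of reads outside the mitochondrial genome, against 0.00982% to 0.0146%). The part of this in the rRNA values was not tested.

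The ratio of the shorter to the longer rRNA row was 1.49, 1.47, 1.65, 1.60 and 1.72 in males 1 to 5 and 2.03, 2.49, 1.78, 1.65 and 1.98 in females 1 to 5. Females had a mean ratio of 1.99 ± 0.322 (SD, n = 5) against 1.59 ± 0.108 in males, and the ranges overlapped, since female 4 lay below male 3 and male 5. It was 1 of 9 ratios computed between members, all chosen after the reads had been seen. The two-sided exact permutation test gave p = 0.0238 for it, 0.0397 without female 2 and 0.214 with Benjamini-Hochberg adjustment over the 9 ratios, so it did not pass the correction. The other 8 ratios had exact p-values of 0.524 to 0.952. Reads on rRNA rows depend on the poly(A) step.

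The tRNA rows, 60 to 75 bases long, were far lower. No read fell on 2 of the 22, which allows up to 3 reads per library, and 6, these included, had at most 3 reads in every library. For the 14 rows with a mean under 10 reads, the highest library had 20 reads. The row with most reads was AY172581.2 (MT:15348-15415, minus strand), the last row of the table's mitochondrial map, with 967 to 2324 reads and a mean of 1359.6 FPKM, about the level of Mt-nd4, which it exceeded in 5 of 10 libraries. The other 7 with a mean of at least 10 reads had mean levels of 15.9 FPKM (AY172581.1) to 115 FPKM (AY172581.10). A pair of them moved widely between libraries.

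AY172581.20 (MT:14062-14130), which adjoins Mt-nd6 on the minus strand, had 112, 102, 161, 21.8 and 80.3 FPKM in males 1 to 5 and 28.5, 11.3, 119, 190.1 and 94.7 FPKM in females 1 to 5. Male 4, female 1 and female 2 were the lowest of the 10. AY172581.16 (MT:9800-9867), between Mt-nd3 and Mt-nd4l, had 38.1, 38.0, 22.4, 110.0 and 40.2 FPKM in males and 63.1, 79.4, 27.0, 37.4 and 22.2 FPKM in females. Here the same 3 libraries were the highest. These rows rest on 11 to 232 and 22 to 154 reads per library.

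The same 3 libraries differed from the other 7 in the make-up of the mitochondrial reads, that is, in each member's share of the reads on mitochondrial mRNAs, a quantity that does not depend on how libraries were scaled. Of the 23 shares compared, all 3 libraries lay above the other 7 in 6, below them in 8 and among them in 9. The grouping was picked from these values, so no test was made. Mt-nd4l took 0.879, 0.845, 0.853, 1.46 and 0.982% in males and 1.54, 1.82, 0.781, 0.861 and 0.721% in females, high in all 3. Mt-nd3, the mRNA before it on the map, which encodes a small subunit of the same complex, took 0.875, 0.842, 0.721, 0.310 and 1.0% in males and 0.469, 0.354, 0.912, 1.0 and 1.02% in females, low in all 3.

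Mt-nd2 and Mt-nd5 were also above, at 8.27% to 9.62% against 6.79% to 7.91% and at 3.81% to 4.02% against 2.82% to 3.57%. Mt-co2, Mt-atp6, Mt-cox3 and Mt-nd6 were below, for example Mt-cox3 at 13.0% to 14.0% against 14.7% to 15.9%. Per length, Mt-nd4l exceeded Mt-nd4 by 6.66 to 7.25 times in the 3 libraries and by 2.86 to 4.98 times in the others. The 2 genes share 7 bases and are known to be carried on one mRNA. Genes of at most 500 bases outside the mitochondrial genome took 1.99% of reads in male 4, 2.21% in female 1 and 2.69% in female 2, against 1.72% to 2.57% in the others.

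**Figure D3:**
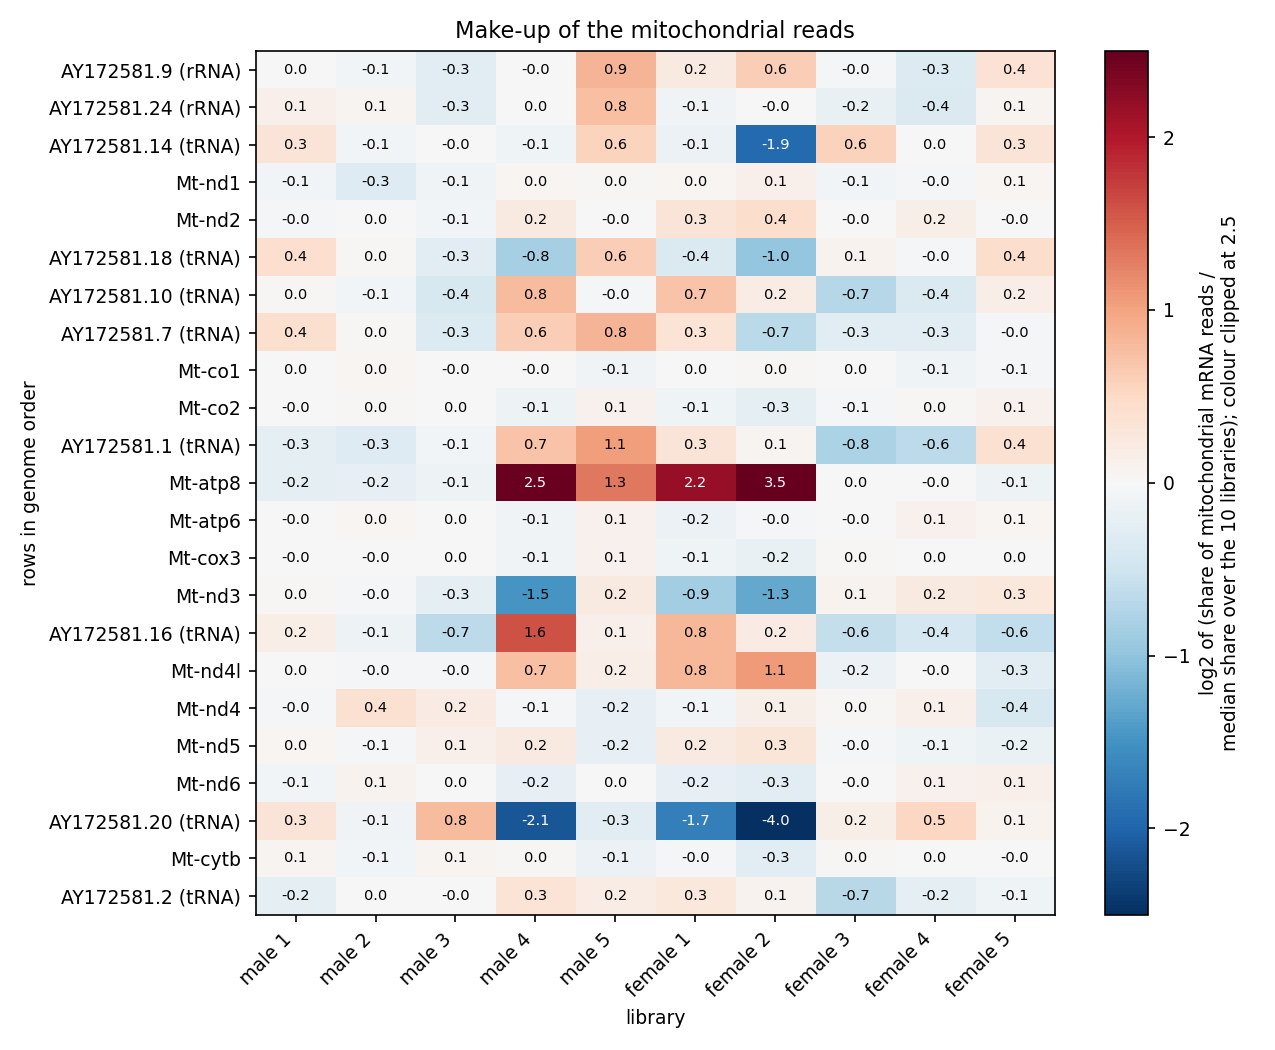
Colour and number give the log2 of a row's share of mitochondrial mRNA reads over its median share in the 10 libraries (columns), for 23 rows in genome order. Male 4, female 1 and female 2 share high Mt-atp8 and Mt-nd4l and low Mt-nd3 and AY172581.20.

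Between the sexes, no mitochondrial row passed the test. Of the 34 rows with a mean of at least 0.1 FPKM (13 mRNA, 2 rRNA and 19 tRNA rows), limma called 0 at an adjusted p of at most 0.05 over 17631 genes, where 2.40% of all genes were called (1.32% with a log2 fold change of at least 1 as well). An unadjusted limma p of at most 0.05 was reached by 0 of the 34, against 15.7% of all genes. With limma-voom on the recovered reads, 0 were called, where 504 of 17631 genes were, and 0 had an unadjusted p of at most 0.05. The lowest limma adjusted p was 0.380, of a tRNA row with a mean under 10 reads, and the mRNA rows had adjusted p-values of 0.633 to 0.873. For none of the 34 were the FPKM ranges of the sexes apart, against 5.10% of all genes, and none reached 0.05 in the exact permutation test, against 14.8% of all genes. These tests missing the threshold does not show that the levels were equal.

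The female mean of the log2 values was higher for all 13 mRNAs, by 0.18 to 0.75 with a median of 0.25, where the median over all genes tested was -0.01 and 48.8% of genes were higher in females. Much of this came with female 2, the highest library for 12 of the 13 mRNAs, with a median of 1.94 times the median of the other libraries. It was also the library with the lowest sum of proximal tubule markers and the highest sum of urothelial markers, whose part in these levels was not tested. Without it, 11 of 13 were higher in females, and the median was 0.10 (range -0.02 to 0.34). With all libraries scaled to reads on all genes, 13 of 13 were higher, with a median of 0.18, where the median over all genes was -0.079. Under quantile normalization, which gives a row that holds the same rank in every library the same value there, 10 of 13 were higher, Mt-co2 was at 0 and Mt-cox3 and Mt-nd4 were lower, with a median of 0.04. The mRNAs come from shared precursors, so they are not independent of each other, and no test was made over them together.

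The lowest exact p among mRNAs was that of Mt-nd1, with 9818, 10001, 10069, 11341 and 11419.7 FPKM in males 1 to 5 and 11077, 22619, 11807, 14897 and 10648 FPKM in females 1 to 5. Females 2, 3 and 4 exceeded every male, while females 1 and 5 lay among the males. The mean was 14209.9 ± 4987 FPKM in females and 10529.7 ± 782 in males (SD, n = 5; log2 difference 0.37, limma SE 0.33, limma adjusted p 0.654). The exact permutation test gave p = 0.0556 (two-sided, unadjusted, 1 of 34 rows compared; the smallest p that 5 against 5 allows is 0.00794). Mt-nd2 came next among complex I mRNAs by exact p, with 15163 ± 6585 FPKM in females and 10624 ± 1228 in males (exact permutation p = 0.135, n = 5 per sex).

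For complex IV, Mt-co1 averaged 39009 ± 12624 FPKM in females and 31550.1 ± 3141 in males (SD, n = 5; log2 difference 0.26, limma SE 0.50, limma adjusted p 0.858). Mt-cytb averaged 16218 ± 3744 FPKM in females against 13569 ± 869 in males (log2 difference 0.23, limma SE 0.34, limma adjusted p 0.806). Mt-atp6 averaged 38410.0 ± 12135 against 31213 ± 3285 FPKM, and Mt-atp8 had the largest difference among mRNAs (log2 0.75, limma SE 0.87, limma adjusted p 0.743), which was -0.02 without female 2. The limma errors of the abundant mRNAs are wide because the trended prior spread at these levels reached 4.86 times a row's own spread: for Mt-co1 the SE from its own 10 values alone was 0.20. Without the trend no row was called either, with a lowest adjusted p of 0.411.

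**Figure D4:**
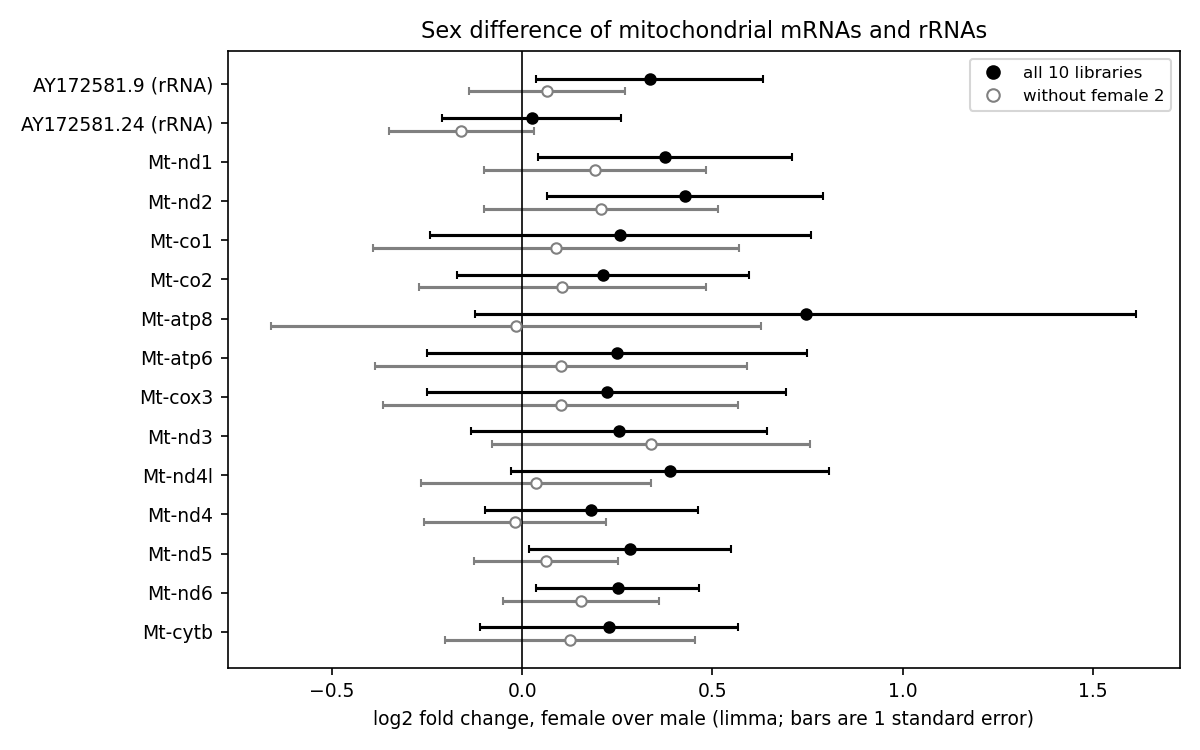
Points give the limma log2 fold change of females over males for the 13 mRNA and 2 rRNA rows in genome order, filled with all 10 libraries and open without female 2, and bars are 1 standard error. All filled points lie above 0, as do 12 of the 15 open ones, and under quantile normalization (not drawn) AY172581.24, Mt-cox3 and Mt-nd4 fell below 0.

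No sex difference was detectable in the make-up of the mitochondrial mRNA pool. Of 23 shares, 0 reached 0.05 in the exact permutation test and 0 had ranges apart, and the 13 mRNA shares had exact p-values of 0.159 to 0.992. Complex I mRNAs took 20.9% ± 1.12 of mitochondrial mRNA reads in males and 22.4% ± 2.05 in females (SD, n = 5). Complex III took 10.2% ± 0.646 and 9.93% ± 0.797, complex IV 54.9% ± 0.942 and 53.9% ± 1.12, and complex V 14.0% ± 0.627 and 13.8% ± 0.918, males first.

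The nuclear genes that act on this genome were called at about the rate of all genes. Of 89 genes for mitochondrial transcription, RNA processing, turnover, replication, biogenesis and translation, 86 were matched and tested, and 1 was called higher and 0 lower in females (1.26% and 1.14% of all genes were). Their median log2 difference was 0.04. The 1 called was Esrrb, an orphan nuclear receptor of the estrogen-related family, with 2.84, 2.07, 2.66, 2.54 and 3.38 FPKM in males 1 to 5 and 4.94, 3.44, 5.19, 5.90 and 4.44 FPKM in females 1 to 5. Every female exceeded every male. The ranges of the sexes were apart for 3 of the 86 genes, against 5.10% of all genes. The log2 difference was 0.80 (limma SE 0.17, limma adjusted p 0.030), and it was called in 2 of the 10 fits that left out 1 library (male 5 or female 2), with limma adjusted p-values of 0.011 to 0.075. It was not called when libraries were scaled to reads on all genes (limma adjusted p 0.069). Without female 2, Tk2, the mitochondrial thymidine kinase, was also called (log2 difference 0.48, limma adjusted p 0.020, against 0.154 with all libraries). That made 2 of the 86, in a fit that called 550 of 17577 genes.

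Polrmt, the mitochondrial RNA polymerase, and Tfam, which packages mitochondrial DNA and aids promoter recognition, had log2 differences of -0.01 and 0.10. Mtpap, the mitochondrial poly(A) polymerase, and Lrpprc, which protects mitochondrial mRNAs, had 0.05 and -0.03. Ppargc1a, a coactivator of mitochondrial biogenesis, had 0.31 (limma adjusted p 0.330), Esrra -0.05 and Esrrg 0.15. None of these 7 passed the test.

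Of 77 nuclear genes for subunits of complexes I to V, 65 were matched and tested and 0 were called by limma, against 2.40% of all genes, while 13 of the 65 had an unadjusted p of at most 0.05, as did 15.7% of all genes tested. Without female 1, 1 of the 65 was called, Ndufv3 of complex I (limma adjusted p 0.028, against 0.069 with all libraries). That fit called 369 of 17633 genes. The female mean of the log2 values was higher for 64 of the 65, with a median of 0.17, and for 60 of 65 when libraries were scaled to reads on all genes or quantile normalized. Female 2 had a summed nuclear subunit level of 1.08 times the median of the other libraries, and without it 64 of 65 were higher, with a median of 0.21. Without female 4, the library with the highest sum, 54 of 65 were higher. Female 4 also had the highest proximal tubule marker sum (2711 FPKM) and the lowest sums of fibroblast (46.1), leukocyte (9.66) and tubule injury markers (9.39 FPKM). The 4 collecting duct markers and the 3 thick ascending limb markers all had higher log2 means in females, with summed levels of 194 to 282 FPKM in males against 249 to 354 in females and of 1002 to 1521 against 1059 to 1693, and 0 of these 7 were called, against 2.40% of all genes. With 1 library left out, Atp6v1g3, whose ranges did not overlap (as in 5.10% of all genes), was called higher without female 2 (limma adjusted p 0.047) and Aqp2 without male 1 (0.036). The part of these cell types in the nuclear subunit levels was not tested. The largest value was that of Ndufa1, an accessory subunit of complex I, which was at 0.560, 142, 1.67, 60.8 and 1.18 FPKM in females 1 to 5 and 0.608 to 1.77 FPKM in males, high in female 2 and female 4 only (chosen after its values were seen; limma adjusted p 0.428).

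**Figure D5:**
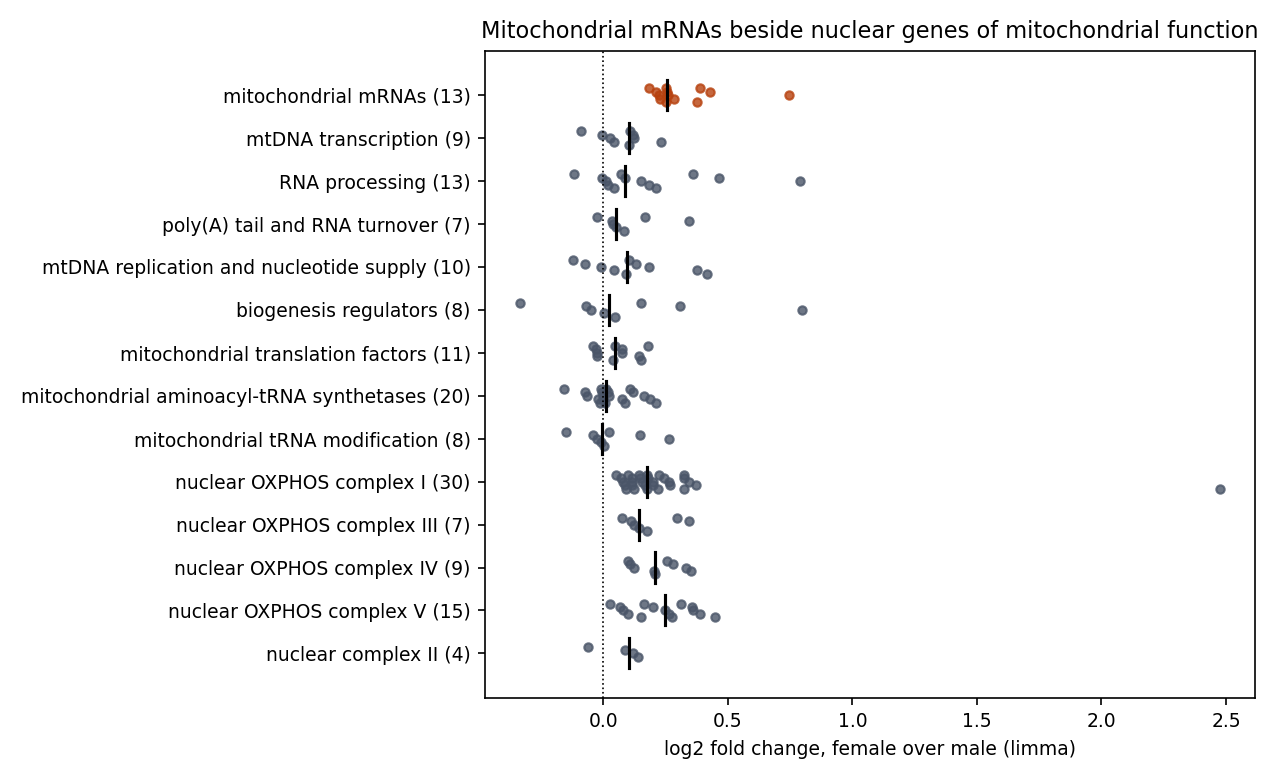
Each point is 1 gene's limma log2 fold change of females over males, in rows for the 13 mitochondrial mRNAs and for lists of nuclear genes, with the number of genes tested in brackets and the median as a vertical line. The lists of respiratory complexes lie mostly to the right of 0, and the point at 2.47 is Ndufa1.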

How the data were processed

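RNA from the kidney cortex of 10 PCK rats, 5 of each sex, was extracted with TRIzol, poly(A) selected and sequenced by Illumina chemistry. Per the labels, the submitters' processing notes list fastp, HISAT2 2.0.5, StringTie 1.3.3b and featureCounts 1.5.0-p3, and the study's methods give Ensembl Rnor_6.0 as the genome mapped with HISAT2. The authors deposited FPKM for 32545 genes. How reads that map to several places, such as nuclear copies of mitochondrial sequence, were counted was not given in the sources used here.

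Reads were recovered from FPKM and gene length, and no per-sample column was left out. Samples were grouped by the labelled sex. The main test was limma 3.58.1 in R 4.3.3, with a trended empirical Bayes prior, on log2(FPKM + 0.1). Genes averaging under 0.1 FPKM were dropped, and p-values were Benjamini-Hochberg adjusted over the 17631 left. Fold changes are on the log2(FPKM + 0.1) scale and understate those of low rows. Single rows had a two-sided exact permutation test. Other steps used Python 3.11.15, pandas 2.3.3, scipy 1.17.1 and numpy 2.4.6. Other pseudocounts, filters, scalings, priors and fits, and each library left out, were tried as alternatives. As litters are unknown, p-values measure only the spread between these 10 rats. No 2 libraries agreed within sampling noise.

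Named were all mRNA and rRNA rows, tRNA rows with a mean of at least 10 reads, nuclear list genes that passed the test and 7 reference genes. Ndufa1, Ndufv3, Tk2 and single marker genes were named outside this rule, after their values were seen. The members and lists were chosen with earlier results of these data known. Of the nuclear lists, 15 genes were left out as unmatched or listed under several identifiers, and 23 were matched by an older symbol in a table of RefSeq genes (GRCr8).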

Additional observations from a re-analysis of the deposited data

Results flagged for a closer look

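Of 94 groups of 5 libraries checked (23 levels and 23 shares in each sex, and the mitochondrial share of reads in each sex), 13 held a library farther from its neighbour than 0.71 of the group's range. Chance would give about 4.7 if the groups were independent and normally spread. They are not independent, since a row counts by its level and its share and the shares have a common denominator. No excess over chance can therefore be read from this count. Male 4 gave 6 of the 13: AY172581.16 at 110.0 FPKM and Mt-nd4l at 7391 FPKM, and shares of mitochondrial mRNA reads of 8.27% for Mt-nd2, 0.00744% for AY172581.10, 0.00496% for AY172581.16 and 1.46% for Mt-nd4l, each the highest male. Female 2 gave 4: AY172581.9 at 1263 FPKM, AY172581.24 at 507 FPKM and Mt-atp8 at 2927 FPKM were the highest among females, and the Mt-cytb share, 8.53%, was the lowest. Male 5 had the highest male AY172581.9, at 797 FPKM and 0.501% of mitochondrial mRNA reads. Male 2 had the highest male Mt-co1, at 36994 FPKM. The causes were not tested.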

How the results depend on the processing

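No mitochondrial row was called by limma under any of 22 alternatives: other pseudocounts, filters, scalings and priors, limma-voom, a replicate block, each library left out, and male 4, female 1 and female 2 left out together (chosen after seeing the data). Genes called over the whole table numbered 424, 231 with the replicate block and 266 to 550 with 1 library left out (282 without male 2, 278 without male 3 and 266 without female 5). Same-numbered libraries share only a number (their deviations correlated at -0.097 to 0.071, and only male 3 correlated best with its own number), and the block changed no member's call. Esrrb missed the threshold with the block (adjusted p 0.058) and when scaled to reads on all genes (0.069). Of the 15 mRNA and rRNA rows, 0 to 3 reached 0.05 in the exact permutation test of FPKM with 1 library left out (Mt-nd1 without female 1, 3 or 5, and Mt-nd2 and Mt-nd5 without female 5), and 0 to 1 in that of shares (AY172581.24 without male 3). The female minus male share of reads, 2.73 points, was 0.661 to 3.81 points with 1 library left out, lowest without female 2. Of the tRNA rows named, AY172581.1, AY172581.20 and AY172581.14 rest on as few as 9, 11 and 13 reads in a library.

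Some differences that had missed the test turned direction. In log2 units, scaling to reads on all genes moved the median of all genes from -0.0066 to -0.079 and, with it, AY172581.24 to -0.051 and Mtpap to -0.023, and scaling to reads outside the mitochondrial genome moved that median to -0.032 and AY172581.24 to -0.00132, so these 3 turns go with the shift of all genes. The causes of the other turns were not tested. Quantile normalization gave -0.037 for AY172581.24 and -0.020 for both Mt-cox3 and Mt-nd4. Without male 4, female 1 and female 2, AY172581.24 was at -0.16, Mt-atp8 at -0.063, Mt-nd4l at -0.012, Mt-nd4 at -0.00118, Polrmt at 0.19, Lrpprc at 0.18 and Esrra at 0.27. With 1 library left out, the range was -0.16 to 0.18 for AY172581.24, -0.017 to 1.20 for Mt-atp8, -0.041 to 0.47 for Mt-nd3, -0.018 to 0.37 for Mt-nd4, -0.086 to 0.11 for Polrmt, -0.0087 to 0.13 for Mtpap, -0.13 to 0.085 for Lrpprc and -0.17 to 0.20 for Esrra.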
